A study of Homo sapiens with 4 samples.

Results

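The adrenergic receptors are the G protein-coupled receptors (GPCRs) for adrenaline and noradrenaline, and 8 of their genes were followed in HEK293 cells. They were the alpha-1 genes ADRA1A, ADRA1B and ADRA1D, the alpha-2 genes ADRA2A, ADRA2B and ADRA2C, and the beta genes ADRB1 and ADRB3. They were chosen by name, without regard to their values, through the RefSeq accession in each probe's identifier. The 8 genes were read by 33 probes in 11 targets, of 71998 probes in 24000 targets on the array, and stood among 17217 genes that could be named. HEK293 is a transformed human embryonic kidney line that carries adenovirus DNA and is much used to express cloned receptors, so that its own adrenergic message is of interest to those who transfect it. All 4 samples were untreated cells at basal state, each from its own culture plate and RNA extraction, and hybridised with Cy3-labelled cDNA to NimbleGen arrays of long oligonucleotides. There was 1 group and no other condition, so the question was which of these receptors gave message above the background of its own array.

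Alpha-1 receptors act mainly through Gq and phospholipase C to release calcium, and are known for contracting vascular and prostatic smooth muscle. Alpha-2 receptors act through Gi/o to lower cyclic AMP and restrain noradrenaline release from nerve endings. Beta receptors act through Gs to raise cyclic AMP, with ADRB1 best known in the heart and ADRB3 in fat and bladder. In a bulk extract a little message in every cell cannot be told apart from more message in a few cells.

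Following the study's rule, the mean plus 2 SD of 10 seminal control genes was taken on each array as the baseline, and a gene counted as detected if its distance to that baseline, averaged over the 4 arrays, exceeded 0. The baseline was 9.47, 9.94, 10.69 and 10.32 log2 units on replicates 1 to 4. A gene's level is the log2 of the mean linear value of its probes, and its distance is that level minus the baseline. Each probe has its own affinity, so levels and distances describe how brightly a gene's probes were read and do not rank transcripts by abundance. Of the 8 receptors, 1 was detected (12.5%), against 52.7% of all 17217 genes. The median distance was -2.76 log2 units over the 8 receptors and 0.26 over all genes.

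The detected receptor was ADRA1B. Its levels on replicates 1 to 4 were 10.61, 10.06, 11.48 and 10.36 log2 units. These levels lay 1.14, 0.13, 0.79 and 0.04 log2 units above the baselines of their arrays. ADRA1B was therefore above the baseline on all 4 arrays, a condition that 45.0% of all genes met, but by almost nothing on replicates 2 and 4. The mean distance was 0.52 ± 0.53 (SD, n = 4), no larger than the spread between arrays. The one-sided limma test against 0, adjusted over all genes, did not pass (adjusted p = 0.143), while it called 45.9% of all genes. Without replicate 1 the distance was 0.32. It was 0.96 on replicates 1 and 3 alone and 0.08 on replicates 2 and 4 alone, a split of the arrays chosen after the values were seen.

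The 3 probes of ADRA1B did not read alike. The probe numbered 1041 in its name gave 11.91, 11.45, 12.83 and 11.76 log2 units on replicates 1 to 4. This probe exceeded the baseline of every array, by 1.44 to 2.44 log2 units. Probe 808 gave 9.48, 8.15, 10.13 and 7.89, and passed the baseline on replicate 1 alone, by 0.01. Probe 2146 gave 7.11, 6.93, 7.27 and 7.84 and was below the baseline throughout. Hence a single probe carried the call. With probe 1041 left out, a choice made after its values were seen, the mean distance of ADRA1B was -1.71 (limma test below the baseline, adjusted p = 1.78e-06). Without probe 808 it was 0.94 (limma test above the baseline, adjusted p = 0.00847). Without probe 2146 it was 1.06 (same test, adjusted p = 0.00318). These omissions too were chosen after the values were seen. Leaving out a dim probe must raise the level and leaving out the brightest must lower it. The directions were thus fixed beforehand, and the p-values are no support for or against the call.

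The gap between the brightest probe of ADRA1B and the next, taken on their means over the arrays, was 3.08 log2 units. Across 19125 named targets the median of this gap was 0.60, and 3.14% of them had one at least as wide. Among the targets of the other 7 receptors it ran from 0.05 to 1.28. A call that rests on 1 probe is not rare near the baseline. Of 1546 detected genes with 1 target and a mean distance up to 1, 517 (33.4%) had 1 probe alone above the mean baseline, against 700 of all 8238 such detected genes (8.50%). What the numbers in the probe names count is not given in the sources used here. Probe sequences were not used, so a match of probe 1041 to another transcript was not tested.

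**Figure D1:**
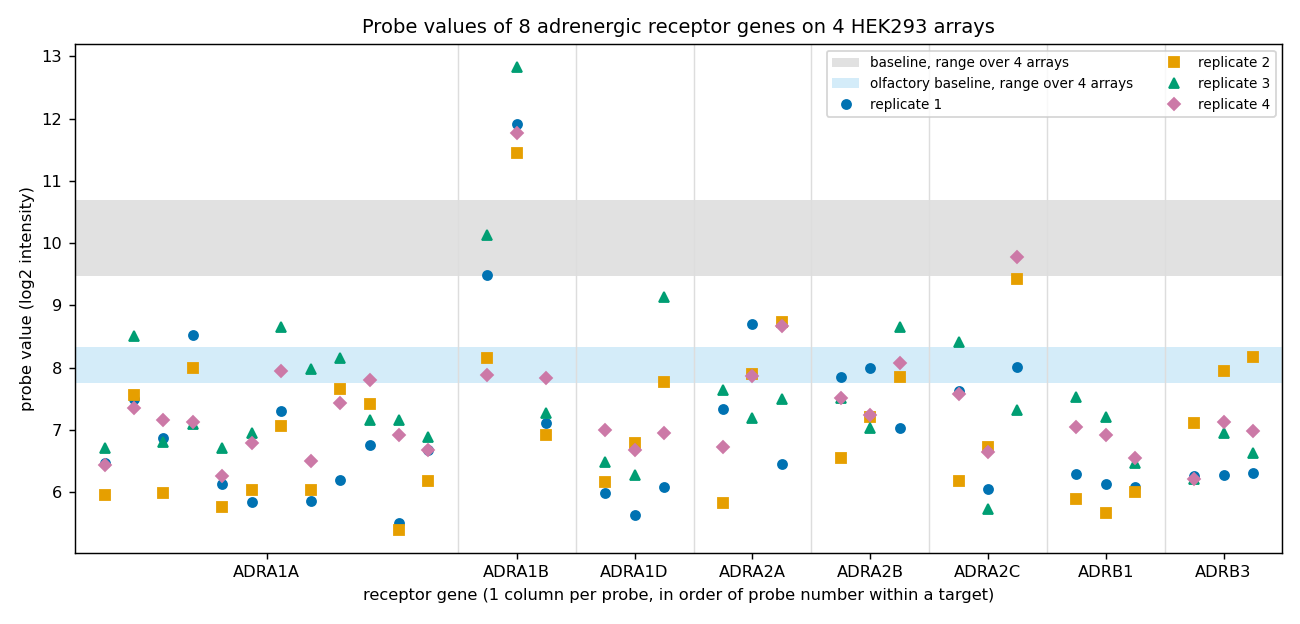
Probe values in log2 intensity (vertical axis) for the 33 probes of the 8 receptor genes, with 1 column per probe and 1 symbol per replicate array. The grey band spans the baselines of the 4 arrays, from 9.47 to 10.69, and the blue band the olfactory baselines, from 7.75 to 8.33. Probe 1041 of ADRA1B is the only one whose 4 symbols all stand above the grey band.

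The DNA just before the gene start is shown for ADRA1B and ADRB1, the receptors read furthest above and furthest below the baseline. RefSeq promoter sequence on GRCh38.p14 was held for 4 of the 8 receptors. The stretch for ADRA1B is chr5:159916232-159916481 and that for ADRB1 is chr10:114043616-114043865, both on the plus strand and both the 250 bases before the start that the table uses. Capitals mark the GC box GGGCGG or its other strand CCGCCC, a site known for binding Sp1, and TGACG or CGTCA, the core of the cyclic AMP response element.
ADRA1B: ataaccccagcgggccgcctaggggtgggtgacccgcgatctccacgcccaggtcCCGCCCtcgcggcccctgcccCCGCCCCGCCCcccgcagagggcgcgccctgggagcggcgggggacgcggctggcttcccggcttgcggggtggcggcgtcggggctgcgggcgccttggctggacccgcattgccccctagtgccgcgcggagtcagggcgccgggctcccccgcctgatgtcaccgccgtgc
ADRB1: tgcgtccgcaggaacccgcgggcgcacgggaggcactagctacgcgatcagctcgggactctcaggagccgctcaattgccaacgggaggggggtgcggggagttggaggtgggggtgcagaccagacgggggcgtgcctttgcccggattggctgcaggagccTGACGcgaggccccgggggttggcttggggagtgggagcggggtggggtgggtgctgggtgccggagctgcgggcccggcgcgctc
The ADRA1B stretch held 3 GC boxes, of which 2 overlap, and no TGACG. The ADRB1 stretch held no GC box and 1 TGACG. Of 35116 promoters of the same length in the table, 42.6% held a GC box and 21.2% a TGACG, on either strand. The G and C bases made up 79.6% of the ADRA1B stretch and 72.8% of the ADRB1 stretch, against a median of 58.0% over the table. ADRA2A (68.8%) and ADRA2C (84.8%) had 1 GC box each. A match describes these letters only, and binding was not measured.

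The other alpha-1 genes were not detected. ADRA1A, which is known for its role in prostate and urethral smooth muscle, was read by 4 targets made on different transcript variants, with 12 probes in all. Its level was 6.85, 6.83, 7.47 and 7.11 on replicates 1 to 4, and its distance was -3.04 ± 0.29 log2 units (SD, n = 4). The means of its 4 targets ran from 6.82 to 7.34, so that no variant on the array stood out, and none of the 12 probes reached the baseline on any array. ADRA1D, a receptor of large arteries such as the aorta, had levels of 5.91, 7.06, 7.93 and 6.88. Its distance was -3.16 ± 0.40 (SD, n = 4). Replicate 1 was the lowest and replicate 3 the highest for ADRA1D, and its level varied more between arrays (SD 0.83) than that of any other receptor followed here. Much of this came from probe 1570, which ran from 6.08 on replicate 1 to 9.14 on replicate 3.

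None of the alpha-2 genes was detected, and they lay closer to the baseline than the other undetected receptors. ADRA2A, the main presynaptic brake on noradrenaline release, had levels of 7.79, 7.91, 7.45 and 7.96 and a distance of -2.33 ± 0.67 log2 units (SD, n = 4). Replicate 3 was the lowest of the arrays, which differed little. ADRA2B, which takes part in vasoconstriction, had levels of 7.68, 7.30, 7.90 and 7.66 and a distance of -2.47 ± 0.46 (SD, n = 4). ADRA2C, found in brain and in the adrenal medulla, had levels of 7.44, 8.17, 7.53 and 8.61 and a distance of -2.17 ± 0.68 (SD, n = 4). ADRA2C was higher on replicates 2 and 4 than on replicates 1 and 3. The same arrays were the higher ones for probe 1404 of ADRA2C, at 9.42 and 9.78 against 8.01 and 7.32, and for probe 3001 of ADRA2A, at 8.73 and 8.66 against 6.45 and 7.49. ADRA1B ran the other way. So did NEFM, a neurofilament subunit, at 13.57 and 13.09 log2 units on replicates 1 and 3 against 8.32 and 8.08 on replicates 2 and 4, and HTR2B, a serotonin receptor, at 9.78 and 10.11 against 6.74 and 6.96. Both of these genes were picked after their values were seen, and their part in the receptors' values was not tested.

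Of the beta genes neither was detected. ADRB1 had levels of 6.17, 5.86, 7.13 and 6.85 and a distance of -3.60 ± 0.33 log2 units (SD, n = 4). Its 3 probes bear the numbers 1572, 1575 and 1578, closer together than those of any other target here, and their means lay between 6.27 and 6.69. ADRB3 had levels of 6.28, 7.81, 6.62 and 6.83 and a distance of -3.22 ± 0.81 (SD, n = 4). Replicate 2 was the highest on each of its 3 probes, at 7.11, 7.95 and 8.18, while the other arrays ran from 6.21 to 7.13.

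**Figure D2:**
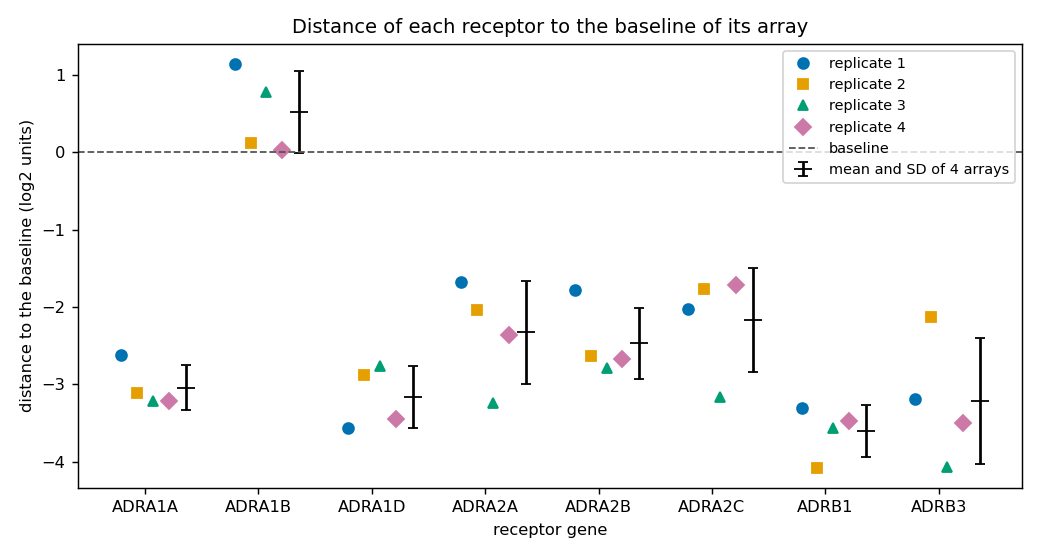
Distance to the baseline in log2 units (vertical axis) of the 8 receptor genes on each of 4 arrays, with the mean and SD of the arrays in black and the baseline as the dashed line at 0. ADRA1B lies above the line on all 4 arrays, from 0.04 to 1.14, and every value of the other 7 lies between -4.08 and -1.68.

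In the limma fit over all genes, 7 of the 8 receptors lay below the baseline at an adjusted p under 0.05, a call that 41.0% of all genes received. The remaining one was ADRA1B. This fit gave every gene the same standard error of 0.351, and since each array has 1 baseline for all genes, the 7 calls were not independent. Ordered by mean distance, the receptors ran ADRA1B, ADRA2C, ADRA2A, ADRA2B, ADRA1A, ADRA1D, ADRB3 and ADRB1. The step from ADRA1B to ADRA2C was 2.69 ± 1.05 log2 units (SD of the difference, n = 4) and kept its sign on all 4 arrays. The step from ADRA2B to ADRA1A was 0.57 ± 0.18 and also kept its sign on all 4 arrays. The other 5 neighbouring steps, from 0.06 to 0.38, were smaller than the SD of the difference. Over the 8 receptors the median SD of a level between arrays was 0.57, against 0.42 over all genes, whereas the median SD of a distance was 0.50, against 0.63 over all genes.

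Olfactory receptor genes, taken as a group, gave another background on the same arrays. Whether HEK293 cells use any of them was not tested. Of these, 364 were measured, and each receptor's level was ranked among them on each array. ADRA1B lay at the 99.5th to 100.0th percentile, by a level to which probe 1041 gave the most. By their means over the arrays, its probes 808, 1041 and 2146 stood at percentiles of 98.7, 100.0 and 90.5 among the olfactory probes. The alpha-2 genes had mean percentiles of 90.0 for ADRA2A, 91.8 for ADRA2B and 91.1 for ADRA2C. ADRA2B kept to a range of 90.1 to 96.2, whereas ADRA2A fell to 73.1 and ADRA2C to 77.2 on replicate 3. ADRA1A had a mean percentile of 76.0, ADRA1D 57.3, ADRB3 45.2 and ADRB1 31.6. ADRA1D ranged from 7.69 to 90.7 and ADRB3 from 11.5 to 95.6, so their places in this background were not stable between arrays. ADRB1 stayed within the lower part of the olfactory genes on all 4 arrays, from 9.89 to 48.9.

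**Figure D3:**
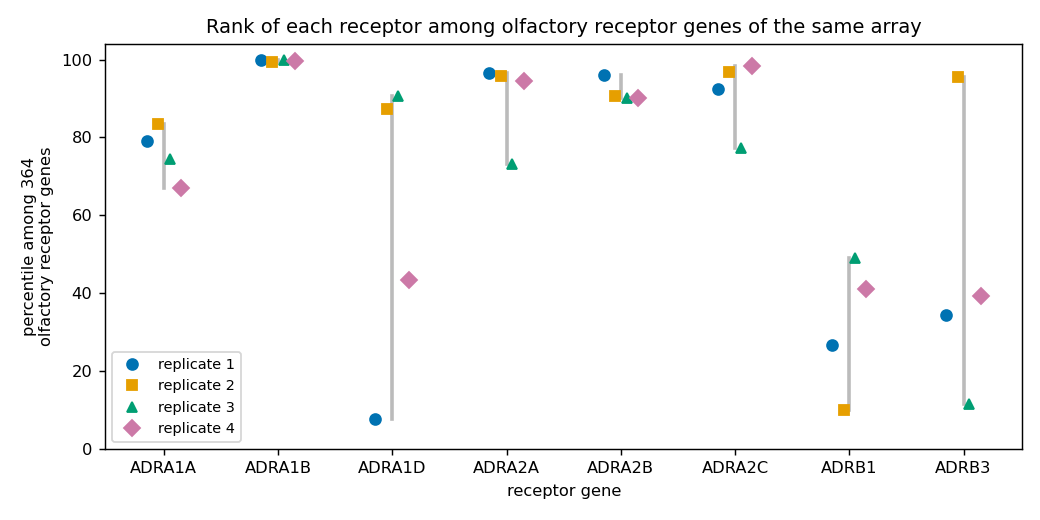
Percentile of each receptor gene (vertical axis, 0 to 100) among 364 olfactory receptor genes of the same array, with 1 symbol per replicate and a grey bar over their range. ADRA1B stays between 99.5 and 100.0, the alpha-2 genes reach from 73.1 to 98.4, and ADRA1D and ADRB3 spread over most of the scale.

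The calls were then followed under other baselines and other summaries of the probes. The seminal controls SPATA5 and SPATA13 were brighter than the other 8 on every array, and without them the mean baseline fell from 10.10 to 7.78. ADRA1B then stood at 2.85 log2 units (limma adjusted p = 7.3e-13). Leaving out the brightest controls lowers the baseline and so raises the distance of every gene. The rise of ADRA1B was thus fixed beforehand, and this p-value is no support for the call. ADRA2C passed the baseline at 0.16 and on 3 of 4 arrays, though its limma test did not pass (adjusted p = 0.393), and ADRA2A stood at -0.002, also above on 3 of 4 arrays. So 2 of the 8 receptors were detected there, against 74.0% of all genes. With the mean plus 2 SD of the olfactory receptor genes as baseline, 8.02 on average, ADRA1B stood at 2.61 (limma adjusted p = 6.44e-10) and was again the only one detected, against 71.4% of all genes. ADRA2A and ADRA2C were above this baseline on 2 of 4 arrays each, with means of -0.24 and -0.08.

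A baseline of 1 SD or one from the median and scaled median absolute deviation of the controls kept ADRA1B alone detected, against 64.3% and 67.7% of all genes, and a baseline of 3 SD left none of the 8 (39.1% of all genes). Taking the highest target of a gene, or quantile normalization over the 4 arrays, also kept ADRA1B alone (53.1% and 52.5%). A limma fit with a trend and a robust prior called none of the 8 above (44.9% of all genes) and 7 below (40.0%). With replicate 1, 2, 3 or 4 left out ADRA1B alone was detected, against 50.6%, 52.3%, 54.3% and 53.6% of all genes. The same held on replicates 1 and 2 (55.9%), 3 and 4 (48.8%), 1 and 3 (53.6%) and 2 and 4 (52.4%).

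The summary of the probes decided the call of ADRA1B. Averaging the log2 values of its probes in place of the linear values gave a distance of -0.37 (limma test below the baseline, adjusted p = 0.33), above the baseline on 1 of 4 arrays. The median of the probes gave -1.06 (adjusted p = 0.0182). Under both of these summaries none of the 8 receptors was detected, against 51.5% and 50.2% of all genes. Whether the study averaged its probes before or after the log2 step is not given in the sources used here. For the beta genes, ADRA1A, ADRA1D and ADRA2B the mean distance was below 0 under every baseline and summary run.

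**Figure D4:**
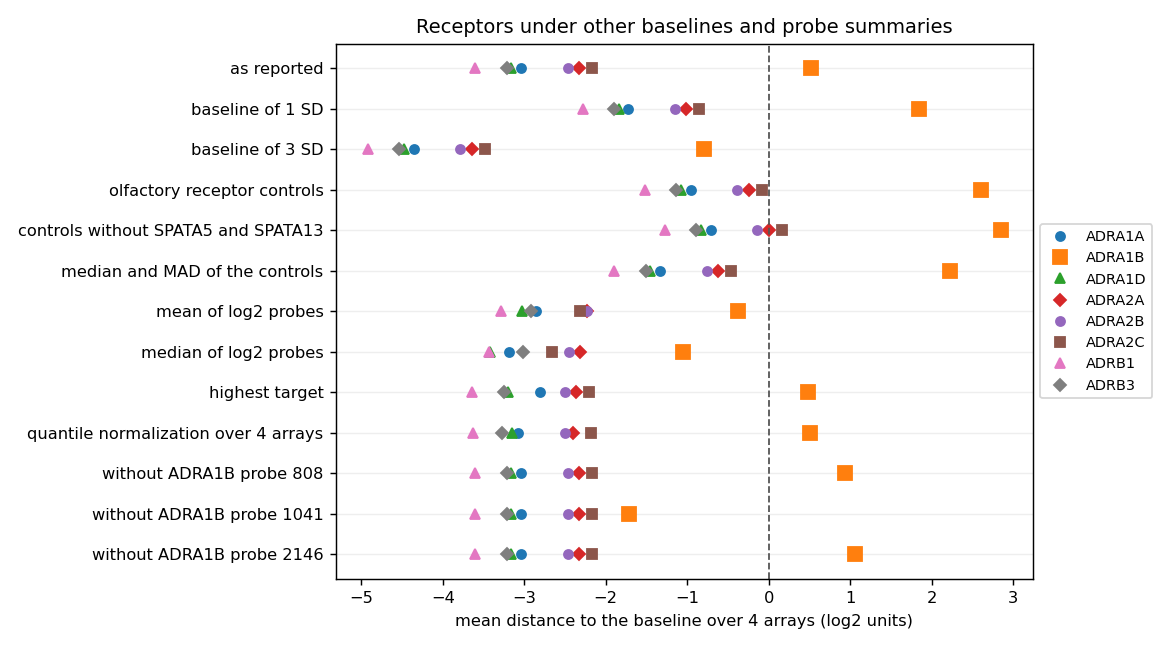
Mean distance to the baseline over 4 arrays (horizontal axis, log2 units) of the 8 receptor genes under each baseline, probe summary or omitted probe (rows), with the baseline at the dashed line. ADRA1B moves from -1.71 to 2.85, and of the other receptors only ADRA2C passes the line, at 0.16 without SPATA5 and SPATA13.

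Genes that make, store or break down catecholamines were set against the same baseline. None of 6 genes of synthesis and storage was detected, and all 6 lay below the baseline by the limma test. TH, the rate-limiting enzyme of catecholamine synthesis, stood at -3.07 ± 0.23 log2 units (SD, n = 4), and DBH, which turns dopamine into noradrenaline, at -2.17 ± 0.36. DBH stood at 0.15 without SPATA5 and SPATA13 as controls. MAOA, the monoamine oxidase that favours noradrenaline and serotonin, stood at 0.36 ± 0.97 (SD, n = 4), and at -0.10 without replicate 1, which alone gave 1.77.

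The proteins through which adrenergic receptors signal were set against the same baseline, with no test between them and the receptors. Of 51 genes for G alpha subunits, effectors, kinases, arrestins and binding partners, 34 were detected (66.7%, against 52.7% of all genes), with a median distance of 1.46 log2 units. For the alpha-1 route, 2 of 4 Gq alpha subunits were detected, GNA11 at 3.08 ± 0.60 and GNAQ at 2.45 ± 0.76 (SD, n = 4 for each), with 2 of 4 phospholipase C beta genes. For the alpha-2 route, 3 of 5 Gi/o alpha subunits were detected, with GNAI2 at 3.77 ± 0.54 (SD, n = 4). For the beta route, both Gs alpha subunits, 5 of 9 adenylyl cyclases and all 6 protein kinase A subunits were detected, with GNAS at 5.03 ± 0.73 (SD, n = 4). Of the genes that quench the signal, 5 of 7 receptor kinases and arrestins and 1 of 4 cyclic AMP phosphodiesterases of family 4 were detected. ARRB2, which binds phosphorylated receptors, stood at 4.79 ± 0.64 (SD, n = 4), and GRK2, a kinase known to act on beta receptors, at -3.50 ± 0.68 (SD, n = 4) and below the baseline on all 4 arrays. Of 10 binding partners of adrenergic receptors 8 were detected. The limma test above the baseline called 31 of the 51 genes, against 45.9% of all genes. Detected without passing this test were PLCB1 (adjusted p = 0.0697), ARRB1 (adjusted p = 0.0572) and AKAP5 (adjusted p = 0.273).

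Receptors for other amines were counted in the same way. Of 25 receptors for dopamine, serotonin, histamine and acetylcholine (muscarinic) that were measured, 1 was detected (4.00%, against 52.7% of all genes), the muscarinic CHRM3, and their median distance was -3.00 log2 units. The difference between 1 of 8 and 1 of 25 was not tested, and without SPATA5 and SPATA13 as controls the counts were 2 of 8 and 7 of 25. The mean distance of CHRM3 was 0.82 ± 0.84 (SD, n = 4), and its limma test above the baseline passed (adjusted p = 0.0214). CHRM3 was below the baseline on replicate 3, by 0.08, and its test did not pass without replicate 2 (0.68, adjusted p = 0.13) or without replicate 4 (0.51, adjusted p = 0.263).

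**Figure D5:**
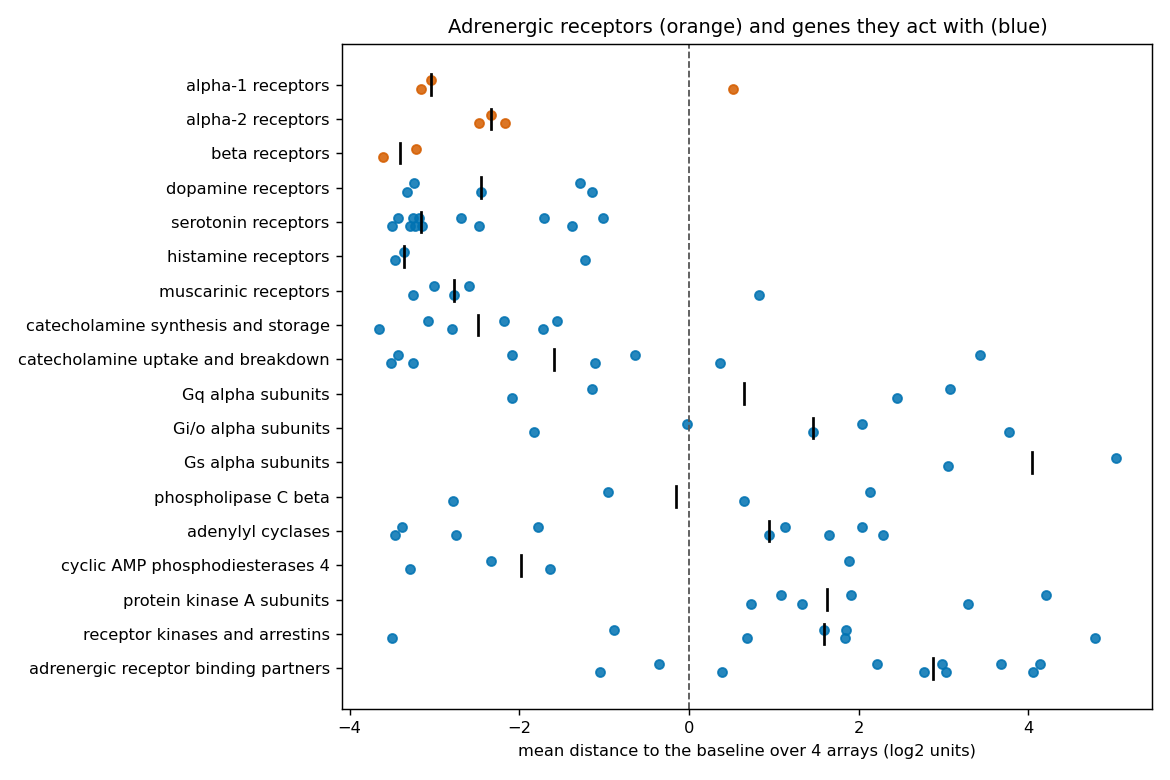
Mean distance to the baseline over 4 arrays (horizontal axis, log2 units) of single genes, grouped by family or pathway (rows), with the median of each group as a black bar and the baseline as the dashed line. The adrenergic receptors, in orange, have 1 of 8 genes to the right of the line, while 34 of the 51 genes they couple to, from Gq subunits down to binding partners, lie there.

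The label of the cells was set against marker genes, with 52.7% of all genes detected by the same rule. Of 8 markers of the developing kidney 4 were detected, of 8 markers of mature tubule and podocyte 1, and of 6 neuronal markers 5. Among the neuronal markers counted was NEFM, which passed the baseline on replicates 1 and 3 alone and did not pass the limma test (adjusted p = 0.0644). Of 4 smooth muscle markers 2 were detected, and none of 4 fat cell markers or of 7 blood and endothelial markers. The kidney and smooth muscle counts were near the share of all genes or below it, so they did not settle the label. All 20 widely used reference genes were detected. The arrays fell into a pair formed by replicates 1 and 2 and another formed by replicates 3 and 4, each with nearly the same distribution of values, and the mean distance of ADRA1B was 0.63 and 0.41 log2 units within these pairs.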

How the data were processed

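Total RNA of 4 HEK293 cultures was profiled in 1 colour on NimbleGen arrays designed on HG18. The authors deposited 1 log2 intensity per probe and array. Per the study's methods NimbleScan extracted the intensities, and the submitters' processing notes name RMA. Which steps of RMA were run, background correction among them, is not described in the sources used here. Rank by rank, replicates 1 and 2 differed by under 0.01 in 99.97% of sorted values and replicates 3 and 4 in 99.99%, against at most 1.25% for other pairs of arrays, the form that quantile normalization in pairs leaves. Depth does not apply to arrays, and the number of arrays limits the precision.

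Accessions were matched without versions to RefSeq of GRCh38.p14, which named 19125 of 24000 targets. Of 11 control genes 10 were matched, PYY2 was not. Nor was HRH2. A gene's level was the mean over its targets. Alternatives covered the baseline, probe summary, normalization, prior and omitted arrays. Distances were tested with limma 3.58 in R 4.3, one-sided in each direction, with Benjamini-Hochberg adjustment over 17217 genes, after the script had been tested on simulated data. All genes shared 1 standard error, since the estimated prior was infinite. An exact sign-flip test of 4 arrays cannot go below 0.0625. All members were named with values, and other listed genes where they were detected or within 1 standard error of the baseline. TH, DBH, GRK2, NEFM and HTR2B were added after their values were seen. The members and lists were chosen with earlier results of these data known. Replicates were labelled biological. One further family member is not reported here.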

Additional observations from a re-analysis of the deposited data

Results flagged for a closer look

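Each receptor's distance and level, each of its probes and the other genes named with values were searched for a single deviating array, which gave 71 sets of 4 values. An array deviated if its gap to the nearest value, divided by the whole range, exceeded Dixon's critical value for 4 samples. This was so for 3 sets (4.23%), and chance marks about 1 in 20.

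Probe 1483 of ADRB3 had a ratio of 0.935, with 7.11 log2 units on replicate 2 against 6.21 to 6.26 elsewhere. The other probes of ADRB3 were also highest on replicate 2, but with ratios that did not pass. The distance of ADRA2B had a ratio of 0.845, with -1.79 on replicate 1 against -2.79 to -2.64 elsewhere. Its level, before the baseline was subtracted, had no array apart, and replicate 1 had the lowest baseline. The distance of GNAI2 had a ratio of 0.830, with 4.56 on replicate 1 and 3.40 to 3.60 on the others. The cause was not tested for any of them.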

How the results depend on the processing

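No paired analysis was possible because the series holds 1 group. Of the 8 receptors, 0 were detected with a baseline of 3 SD, with the mean or the median of the log2 probe values, by the limma test with either prior, and without probe 1041 of ADRA1B. With SPATA5 and SPATA13 left out 2 were, and under every other alternative 1. The number of receptors below the baseline by the limma test was 7 as reported, beside 41.0% of all genes. It was 4 with olfactory receptor controls, 4 without SPATA5 and SPATA13, and 5 with the median and scaled median absolute deviation. It was 8 with 3 SD, with the median of the log2 probe values and without probe 1041 of ADRA1B. The share of all genes called below is not given for these alternatives. Other amine receptors gave 1 gene as reported (52.7% of all genes) and 5 with 1 SD (64.3%). They gave 0 with 3 SD (39.1%) or when all 4 arrays had to pass (45.0%). They gave 7 with olfactory controls (71.4%), without SPATA5 and SPATA13 (74.0%), or with the median and scaled median absolute deviation (67.7%). The catecholamine and coupling genes were 36 of 65 as reported (55.4%), near the 52.7% of all genes. They ran from 28 with 3 SD to 52 without SPATA5 and SPATA13, where 39.1% and 74.0% of all genes were detected.

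For ADRA1B the distance turned to -0.79 with 3 SD, -0.37 with mean log2 probes, -1.06 with their median and -1.71 without probe 1041. MAOA turned to -0.95 with 3 SD, -0.10 without replicate 1 (0.63 without replicate 4, the highest), -0.22 on replicates 3 and 4 and -0.15 on replicates 2 and 4. CHRM3 turned to -0.49 with 3 SD. ADRA2C turned to 0.16 and DBH to 0.15 without SPATA5 and SPATA13. The cause was not tested beyond what each alternative changes. Of the single-gene values 307 kept their direction and side of the threshold, 16 lost the test, 11 gained it and 11 changed sign. Leaving out each array, the median percentile of the receptors among olfactory genes, 83.0 as reported, ran from 80.8 to 84.4. Replicates 1 with 3, replicates 2 with 4 and the omission of single ADRA1B probes were chosen after the data were seen. No signal over background of single spots was used here, which limits what a low level can show.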
